A study of Mus musculus with 4 samples.

Results

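The genes described here code for proteins of the nuclear lamina and for chromatin factors that dividing cells use. There are 10 of them: Lmnb1, Lmna and Lbr of the nuclear envelope, the high mobility group genes Hmgb2, Hmga1 and Hmga2, the histone methyltransferase gene Ezh2, the DNA methylation genes Dnmt1 and Uhrf1, and the heterochromatin protein gene Cbx5. Each was taken as the row of the deposited count table that carries its symbol, and all 10 passed the filter on low counts that left 16734 of 51826 rows. RNA was sequenced from mouse dermal papilla cells (DPCs), which sit at the base of the hair follicle, and from dermal sheath cells (DSCs), which line its outside. Low-passage cells were at passage 3 and high-passage cells at passage 9, and each of the 4 groups was 1 library. All groups were grown in DMEM from the whisker follicles of 5- to 6-week-old C57BL/6J mice. The study's methods call these mice EGFP-transgenic, while the labels give the genotype of every sample as WT. The comparison asks how the level of these genes differed after serial passage.

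Library totals were 35340038 and 34981284 counts for DPCs at passage 3 and 9, and 38780425 and 47604059 for DSCs. With 1 library per group, no difference below has a replicate check, and passage cannot be told apart from the day or batch in which a library was made. Levels are given as CPM (counts scaled to a common library size) after TMM scaling, which corrects library totals for shifts in composition. A change is the log2 level at passage 9 minus that at passage 3. The interval in parentheses is an exact 95% Clopper-Pearson interval from the counts of the libraries compared. It covers counting error only, so it compares libraries, not conditions.

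Lamins are intermediate filament proteins that form a mesh beneath the inner nuclear membrane, where they hold silent chromatin at the nuclear edge. B-type lamins stay anchored in the membrane by a lipid tail, whereas lamin A loses its tail when it matures. Chromatin factors such as Ezh2, Uhrf1 and Dnmt1 restore histone and DNA methylation on newly copied chromosomes, and several of their genes are transcribed mainly in cycling cells. Loss of lamin B1 is widely used as a mark of cellular senescence, and Hmgb2 is also known to be reduced in senescent cells. In bulk RNA, fewer cells in division and less RNA per cell cannot be told apart.

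Promoter sequences are shown for 4 members, whose windows differ in the motifs of cell cycle genes. The other members with a window are counted below. Whether a motif goes with the direction or size of a member's change was not tested. They come from RefSeq windows of build GRCm38.p6 that run from 250 bases before to 50 bases after a gene's start, and 15 such windows matched 9 members. Below are the 120 bases before the start, read in the direction of transcription. Capitals mark the CCAAT box (CCAAT), the cell cycle homology region or CHR (TTTGAA or TTCGAA) and the E2F site (TTTCCCGC, TTTCGCGC, TTTGCCGC or TTTGGCGC), searched on both strands.
Hmgb2, chr8:57511723-57511842, plus strand: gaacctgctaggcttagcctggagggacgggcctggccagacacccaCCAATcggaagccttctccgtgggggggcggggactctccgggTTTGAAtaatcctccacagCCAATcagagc
Lbr, chr1:181842402-181842521, minus strand: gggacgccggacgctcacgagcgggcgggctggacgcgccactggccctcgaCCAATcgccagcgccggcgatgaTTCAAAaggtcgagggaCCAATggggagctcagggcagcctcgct
Uhrf1, chr17:56304193-56304312, plus strand: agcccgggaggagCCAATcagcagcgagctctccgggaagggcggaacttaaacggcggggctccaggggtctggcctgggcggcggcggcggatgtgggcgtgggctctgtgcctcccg
Hmga2, chr10:120476470-120476589, minus strand: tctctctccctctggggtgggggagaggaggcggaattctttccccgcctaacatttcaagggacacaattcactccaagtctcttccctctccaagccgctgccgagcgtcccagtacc
The stretch of Hmgb2 holds 2 CCAAT boxes with a CHR between them, and that of Lbr has the same order with the CHR on the reverse strand. The Uhrf1 stretch shows 1 CCAAT box, and an E2F match, TTTCGCGC, begins 185 bases before that start. The Hmga2 window holds none of the 3 motifs.

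Across the windows of all genes, 37.4% of 32851 held a CCAAT box, 19.2% a CHR and 2.27% an E2F match. A gene can have several windows, and of 27025 genes 41.1% had a CCAAT box in at least 1 of them, 21.7% a CHR and 2.61% an E2F match. Among the 9 members with a window, 7 had a CCAAT box, 3 a CHR (Lbr, Hmgb2 and Dnmt1) and 3 an E2F match (Ezh2, Dnmt1 and Uhrf1). No window of Lmnb1 was searched. A match to these letters is a description of the sequence and not a measured binding site.

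All 10 members were lower at high passage in both cell types by counts, as were 34.4% of all tested genes. The deposited FPKM turned the direction for Cbx5 in DPCs. In DPCs, 8 were at least 2-fold lower, as were 15.0% of all tested genes, and 3 (Lmnb1, Uhrf1 and Hmgb2) were at least 4-fold lower, as were 4.36% of all tested genes. In DSCs, 4 were at least 2-fold lower, against 6.21% of all tested genes, and none reached 4-fold, which 1.16% did. Lmnb1, Hmgb2, Ezh2 and Uhrf1 were at least 2-fold lower in both cell types, as were 3.54% of tested genes. The median change over the members was -1.43 in DPCs and -0.90 in DSCs, beside 0.03 and 0.00 over all tested genes. Together the members took 1437 CPM in low-passage and 628 CPM in high-passage DPCs. In DSCs the sums were 1313 and 800 CPM.

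**Figure D1:**
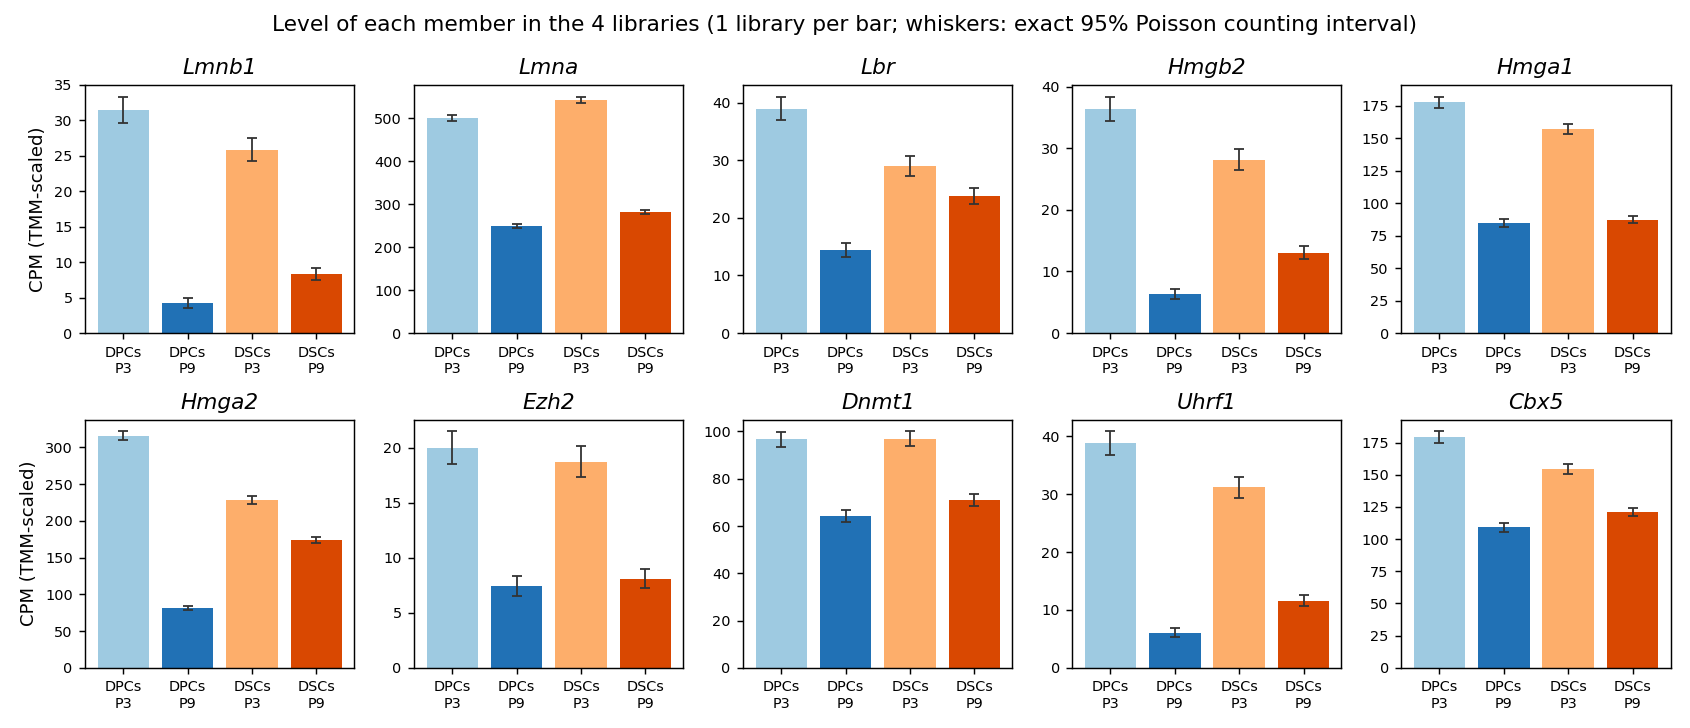
Level of each member in CPM (linear axes that start at 0, 1 panel per gene) in the 4 libraries, with 1 library per bar and whiskers for the exact 95% Poisson counting interval. In each panel both high-passage bars are below their low-passage bars, and the low bar of Lmnb1 in high-passage DPCs stands at 4.23 CPM against 31.5 CPM at low passage.

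Among the genes of the nuclear envelope, Lmnb1, which codes for lamin B1, had the largest decrease of the members in both cell types. It had 1158 counts at passage 3 and 152 at passage 9 in DPCs, and 981 and 381 in DSCs. High-passage DPCs thus had the lowest level, 4.23 CPM, and high-passage DSCs the next lowest, 8.36 CPM. The change was -2.88 (-3.15 to -2.65) in DPCs, or 7.35-fold lower, and -1.62 (-1.80 to -1.46) in DSCs, or 3.08-fold lower. A change as low as that of Lmnb1 was found in 1.90% of tested genes in DPCs and in 2.08% in DSCs.

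Lmna, the gene of lamins A and C, was the most abundant member, with 501 CPM at passage 3 and 249 at passage 9 in DPCs, and 543 and 282 in DSCs. Its change was nearly the same in the cell types, -1.01 (-1.04 to -0.97) in DPCs and -0.95 (-0.98 to -0.92) in DSCs. The lamins were therefore not reduced in proportion. On the FPKM scale, which divides by transcript length and so allows genes to be compared, the level of Lmna over that of Lmnb1 was 15.9 at passage 3 and 55.5 at passage 9 in DPCs, and 20.8 and 32.2 in DSCs. Lmnb2, which codes for the other B-type lamin, changed by -1.10 in DPCs and -0.85 in DSCs. Its FPKM level over that of Lmnb1 went from 0.573 to 1.84 in DPCs and from 0.699 to 1.26 in DSCs, so that Lmnb2 was the higher of the B-type lamin genes at high passage and Lmnb1 at low passage.

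Lbr codes for the lamin B receptor, a membrane protein that binds B-type lamins and HP1 and also has sterol reductase activity. Its level was 39.0 CPM at passage 3 and 14.4 at passage 9 in DPCs, and 29.0 and 23.7 in DSCs. Only the high-passage DPC library stood far below the others. The change was -1.44 (-1.59 to -1.29) in DPCs and -0.29 (-0.41 to -0.17) in DSCs, the smallest decrease of the members in DSCs. Exons of Dnah14 on the opposite strand cover 9.24% of the exonic bases of Lbr, and reads of the overlap cannot be assigned where counting ignores strand.

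Most other genes of the nuclear envelope changed less. Of 21 tested partners of the lamina, 2 were at least 2-fold lower in DPCs (Lmnb2 and, named after its values were seen, Banf1, a DNA-bridging protein of the reforming envelope) and 0 in DSCs, with median changes of -0.28 and -0.20. Banf1 changed by -1.26 in DPCs and -0.64 in DSCs. Syne1, which codes for the envelope protein nesprin-1 and was picked after its values were seen, was the only partner at least 2-fold higher in DPCs, with changes of 1.55 in DPCs and 0.98 in DSCs. The lamin A protease gene Zmpste24, also picked afterwards, changed by -0.44 and -0.20.

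**Figure D2:**
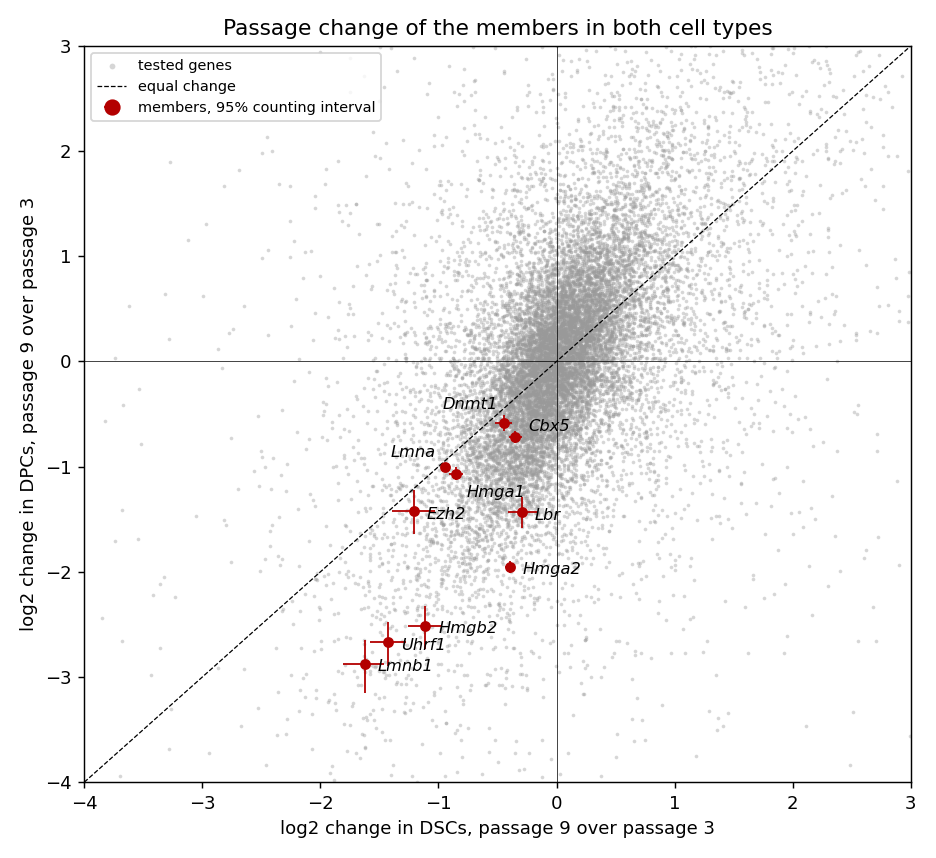
Change with passage in DPCs (vertical axis, log2) against that in DSCs (horizontal axis, log2) for all tested genes (grey) and for the members (red, with the 95% counting interval of each change), with a dashed line of equal change. All 10 members lie at the lower left and below the dashed line, Lmnb1 lowest at -2.88 and -1.62, and 647 tested genes lie outside the axes.

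The high mobility group proteins bend or open DNA without reading a specific sequence. Hmgb2, which is abundant in dividing cells, had 1339 counts at passage 3 and 227 at passage 9 in DPCs, and 1067 and 593 in DSCs. Its change was -2.51 (-2.73 to -2.32) in DPCs and -1.11 (-1.26 to -0.97) in DSCs. The paralogs of Hmgb2 went different ways. Hmgb1, the common and more widely expressed form, had changes of 0.25 in DPCs and 0.16 in DSCs, and Hmgb3 had -1.06 and -1.53. Of the 50-base stretches in Hmgb2 transcripts, 18.7% also occur in transcripts of other genes, among them the copy Gm4739, so its counts may share reads with copies.

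Hmga1 and Hmga2 code for AT-hook proteins that bind the narrow groove of AT-rich DNA and are high in embryonic and in proliferating cells. Hmga2 had 11627 counts at passage 3 and 2924 at passage 9 in DPCs, and 8664 and 7931 in DSCs. The high-passage DPC library was again the one that stood apart. Hmga2 changed by -1.95 (-2.01 to -1.90) in DPCs, 3.88-fold lower and just short of the 4-fold threshold, and by -0.39 (-0.44 to -0.35) in DSCs. Hmga1 was less different between the cell types, with 178 CPM at passage 3 and 84.8 at passage 9 in DPCs, and 157 and 87.3 in DSCs. Its change was -1.07 (-1.13 to -1.004) in DPCs and -0.85 (-0.91 to -0.79) in DSCs. By FPKM, Hmga1 over Hmga2 was 1.21 in low-passage and 2.25 in high-passage DPCs, and 1.46 in low-passage and 1.08 in high-passage DSCs, so the ratio went in opposite directions in the cell types.

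The counts of Hmga1 are uncertain, since 55.0% of its 50-base stretches also occur elsewhere among annotated transcripts and reads of such stretches cannot be assigned to Hmga1 alone.

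Hmga2 is a textbook target of the let-7 microRNAs, which repress it through its 3′ untranslated region (UTR), and the target sites are shown for that reason. The seed of let-7, bases 2 to 8 and in capitals here, is shared by 10 of the 11 mouse let-7 and miR-98 mature sequences in RefSeq.
mmu-let-7a-5p: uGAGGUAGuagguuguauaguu
In the 3014-base UTR of the GENCODE M21 annotation (build GRCm38), the complement of the seed occurs 4 times. The sites follow in the direction of transcription, with the match in capitals, all on the minus strand.
Hmga2 site 1, chr10:120364224-120364246: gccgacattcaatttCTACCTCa
Hmga2 site 2, chr10:120362987-120363009: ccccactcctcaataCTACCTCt
Hmga2 site 3, chr10:120362549-120362571: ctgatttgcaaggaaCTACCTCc
Hmga2 site 4, chr10:120361691-120361713: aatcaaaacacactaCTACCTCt
At least 1 such match was found in the UTRs of 9.02% of 21005 genes, and 12 genes, Hmga2 included, had at least 4. Cbx5 had 2 matches, Lbr, Hmga1 and Ezh2 had 1 each, and the other members had 0. MicroRNAs were not measured in these libraries. Lin28a, whose product blocks let-7 maturation, had a count of 0 in all libraries, which allows up to 3 counts or 0.0815 CPM in low-passage DPCs. The related Lin28b had 6 counts in high-passage DPCs and 0 in the other libraries.

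Among 10 other genes of HMG proteins, 3 were at least 2-fold lower in DPCs and 2 in DSCs, and 1 was at least 2-fold higher in DPCs. The lower genes included Hmgn2, a nucleosome-binding protein gene, with 1747 counts in low-passage and 214 in high-passage DPCs, and 1372 and 689 in DSCs. The change of Hmgn2, -2.98 in DPCs and -1.26 in DSCs, was larger than that of any member in DPCs. The median over these 10 genes was 0.00 in DPCs and -0.01 in DSCs.

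Ezh2 codes for the catalytic subunit of Polycomb repressive complex 2, which methylates histone H3 at lysine 27. It had 735 counts at passage 3 and 266 at passage 9 in DPCs, and 710 and 369 in DSCs. The counting intervals of the cell types overlapped, with a change of -1.42 (-1.64 to -1.23) in DPCs and -1.20 (-1.39 to -1.03) in DSCs. Ezh1, which codes for the alternative catalytic subunit found in resting cells, had 1074 counts at passage 3 and 1653 at passage 9 in DPCs, and 1920 and 2212 in DSCs. This is a change of 0.66 in DPCs and -0.06 in DSCs. By FPKM, Ezh2 over Ezh1 was 1.40 at passage 3 and 0.262 at passage 9 in DPCs, and 0.706 and 0.346 in DSCs. On that scale low-passage DPCs were the only library with more Ezh2 than Ezh1. The FPKM (pseudocount of 0.1) gave Ezh2 a change of -1.77 in DPCs and -1.05 in DSCs, so part of the ratio's shift in DPCs depends on the measure.

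Of 23 tested Polycomb genes other than Ezh2, 1 was at least 2-fold lower and 3 at least 2-fold higher in DPCs, and 0 passed 2-fold in DSCs. The median changes were 0.05 and -0.06. The genes of this list other than Ezh1 are named after their values were seen. The lower gene was Phf19, an accessory subunit of the complex, with -1.98 in DPCs and -0.93 in DSCs. The core subunit genes Eed and Suz12 changed by -0.04 and -0.01 in DPCs and by -0.09 and -0.26 in DSCs. Cbx7, which codes for a reader of methylated lysine 27, was at the other end with 1.92 and 0.97.

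**Figure D3:**
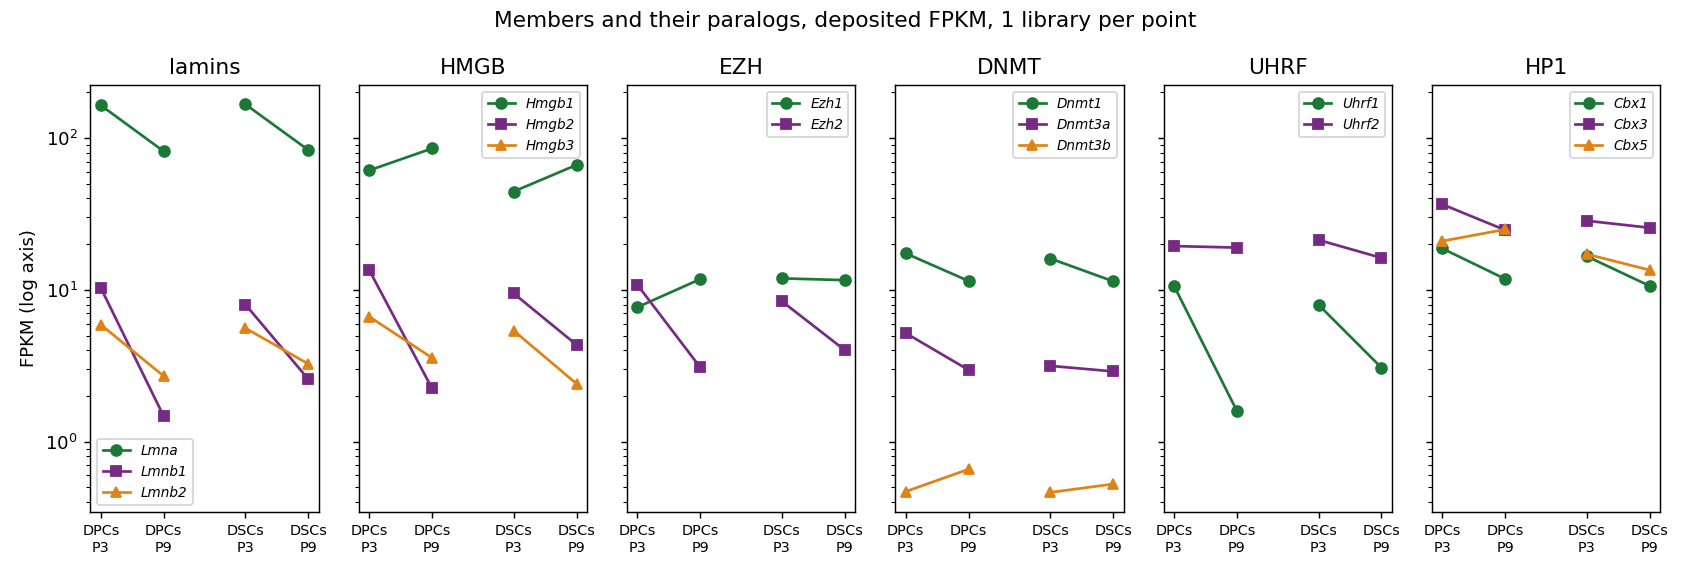
Deposited FPKM (log axis, 1 library per point) of members and their paralogs in 6 families, with lines that join passage 3 to passage 9 within a cell type. The lines of Lmnb1 and Lmnb2 cross in both cell types, those of Ezh2 and Ezh1 cross in DPCs, and Cbx5 is the only member drawn whose line goes up, from 20.9 to 25.0 in DPCs.

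Uhrf1 and Dnmt1 act in sequence, since Uhrf1 binds DNA methylated on 1 strand after replication and recruits Dnmt1, which methylates the other strand. Both were lower at passage 9, by different amounts. Uhrf1 had 1427 counts at passage 3 and 217 at passage 9 in DPCs, and 1182 and 528 in DSCs. Its change was -2.67 (-2.89 to -2.47) in DPCs and -1.42 (-1.58 to -1.28) in DSCs, second among the members after Lmnb1 in both. Transcripts of 2 other genes, mostly Gm5648, share 15.4% of the 50-base stretches of Uhrf1. Dnmt1 had 96.7 CPM at passage 3 and 64.3 at passage 9 in DPCs, and 96.8 and 71.0 in DSCs. It changed by -0.59 (-0.67 to -0.51) in DPCs, the smallest decrease of the members there, and by -0.45 (-0.52 to -0.38) in DSCs. By FPKM, Dnmt1 over Uhrf1 was 1.63 in low-passage and 7.16 in high-passage DPCs, and 2.02 and 3.70 in DSCs.

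The paralogs and partners of Uhrf1 and Dnmt1 mostly changed little. Uhrf2 had changes of -0.03 in DPCs and -0.64 in DSCs. Dnmt3a, a de novo methyltransferase gene, had -1.04 and -0.05, while Dnmt3b had only 65 to 73 counts in any library, with 0.18 and -0.42. Of 17 tested genes of DNA methylation and its readers, 2 were at least 2-fold lower in DPCs and 0 in DSCs, with medians of 0.03 and 0.01. Besides Dnmt3a the lower gene was Hells, a chromatin remodeller named after its values were seen, with -1.56 in DPCs and -0.68 in DSCs.

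Cbx5 codes for HP1 alpha, which binds histone H3 methylated at lysine 9 and, through the lamin B receptor, the nuclear envelope. By counts it was lower at high passage, with 6596 at passage 3 and 3921 at passage 9 in DPCs, and 5849 and 5519 in DSCs. The change was -0.71 (-0.77 to -0.66) in DPCs and -0.35 (-0.40 to -0.30) in DSCs. The deposited FPKM of Cbx5 went the other way in DPCs, from 20.9 to 25.0, and was 17.2 and 13.5 in DSCs. The direction for Cbx5 in DPCs therefore depends on which deposited value is read.

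The disagreement can be located in 1 library. The unscaled CPM divided by the FPKM gives the transcript length, in kilobases, that the FPKM implies. For Cbx5 this was 8.91 at passage 3 and 4.48 at passage 9 in DPCs, and 8.78 and 8.59 in DSCs. Among the other members the highest of the 4 implied lengths was at most 1.28 times the lowest, reached by Ezh2. For Cbx5 it was 1.99 times. The 4 annotated coding transcripts of Cbx5 are between 376 and 8803 bases long. Which isoforms were present was not tested, because the files give 1 value per gene.

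The other HP1 genes were lower by both measures. Cbx1, the gene of HP1 beta, had changes of -0.65 in DPCs and -0.56 in DSCs, while Cbx3, the gene of HP1 gamma, had -0.49 and -0.13. Of 16 tested genes of HP1 and lysine 9 methylation other than Cbx5, 4 were at least 2-fold lower in DPCs and 3 in DSCs, with medians of -0.36 and -0.31. Those at least 2-fold lower in both cell types were Chaf1b, a subunit of the histone chaperone that works at replication forks, with -1.40 and -1.62, and Incenp, of the mitotic chromosomal passenger complex, with -1.22 and -1.11.

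Every member had a larger decrease in DPCs than in DSCs by counts, while 25.7% of tested genes were lower in both cell types and by more in DPCs. For 7 of the 10 the counting intervals of the changes did not overlap, as for 15.0% of tested genes in this direction. By 1 log2 unit or more, 5 members differed in this direction (Hmga2, Hmgb2, Lmnb1, Uhrf1 and Lbr), as did 12.3% of tested genes. The largest gap was that of Hmga2, whose change in DPCs was lower than its change in DSCs by 1.56 log2 units (-1.56). For Lmna, Hmga1, Ezh2 and Dnmt1 the gaps were between -0.22 and -0.06. The DPC and DSC changes have no replicates, so whether the cell types respond differently was not tested.

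The same values can be read between cell types. At passage 3, DPCs had the higher level for 8 members, as for 50.2% of tested genes, but no member differed 2-fold, whereas 13.3% of tested genes did. The differences ran from -0.12 for Lmna to 0.47 for Hmga2, and the intervals of Ezh2 and Dnmt1 included 0. At passage 9, DPCs had the lower level for all 10 members by TMM-scaled counts, as for 51.0% of tested genes, and the intervals of 8 excluded 0 on the lower side, as did those of 36.5%. Hmgb2, at -1.03 (-1.27 to -0.82), and Hmga2, at -1.09 (-1.16 to -1.03), were at least 2-fold lower in DPCs, as were 11.0% of tested genes. Neither passed 2-fold with total-count scaling, at -0.94 for Hmgb2 and -0.99 for Hmga2, or by FPKM, at -0.92 and -0.99 with a pseudocount of 0.1. Lmnb1 followed at -0.97 (-1.26 to -0.71) and Uhrf1 at -0.93 (-1.17 to -0.71). The sign of the difference thus turned with passage for 8 members, as it did in this direction for 24.3% of tested genes, although for Hmga1 and Ezh2 the passage 9 interval included 0. The deposited FPKM put Cbx5, Dnmt1 and Hmga1 higher in DPCs at passage 9 as well, and total-count scaling did so for Hmga1.

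Genes of the cell cycle were also lower at high passage. Of 26 genes of G2 and M phase, 26 were at least 2-fold lower in DPCs and 22 in DSCs, with medians of -2.82 and -1.32. Examples were Cdc20, an activator of the anaphase-promoting complex, at -4.20 in DPCs and -2.28 in DSCs, and the cyclin gene Ccna2 at -3.24 and -1.93. Of 26 genes of S phase, 18 were at least 2-fold lower in DPCs and 9 in DSCs, with medians of -1.47 and -0.92. Here Ung, a DNA repair gene, changed by -2.18 and -1.59, and the replication licensing gene Cdc6 by -2.96 and -1.47. Against the S-phase median in DPCs, Lmnb1 lay at -1.41, Uhrf1 at -1.20, Hmgb2 at -1.05 and Hmga2 at -0.49. Above it lay Lbr (0.03), Ezh2 (0.04), Hmga1 (0.40), Lmna (0.46), Cbx5 (0.75) and Dnmt1 (0.88). Against the G2/M median in DPCs, Lmnb1 lay at -0.06 and the others above it, from 0.15 for Uhrf1 to 2.23 for Dnmt1. Against the S-phase median in DSCs, Lmnb1 lay at -0.71, Uhrf1 at -0.51, Ezh2 at -0.29, Hmgb2 at -0.19 and Lmna at -0.03. Above that median lay Hmga1 (0.07), Dnmt1 (0.47), Hmga2 (0.52), Cbx5 (0.57) and Lbr (0.63). Against the G2/M median in DSCs, Lmnb1 (-0.31) and Uhrf1 (-0.11) lay below and the others above, up to 1.03 for Lbr. How much of the members' change goes with the cell cycle genes was not tested.

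**Figure D4:**
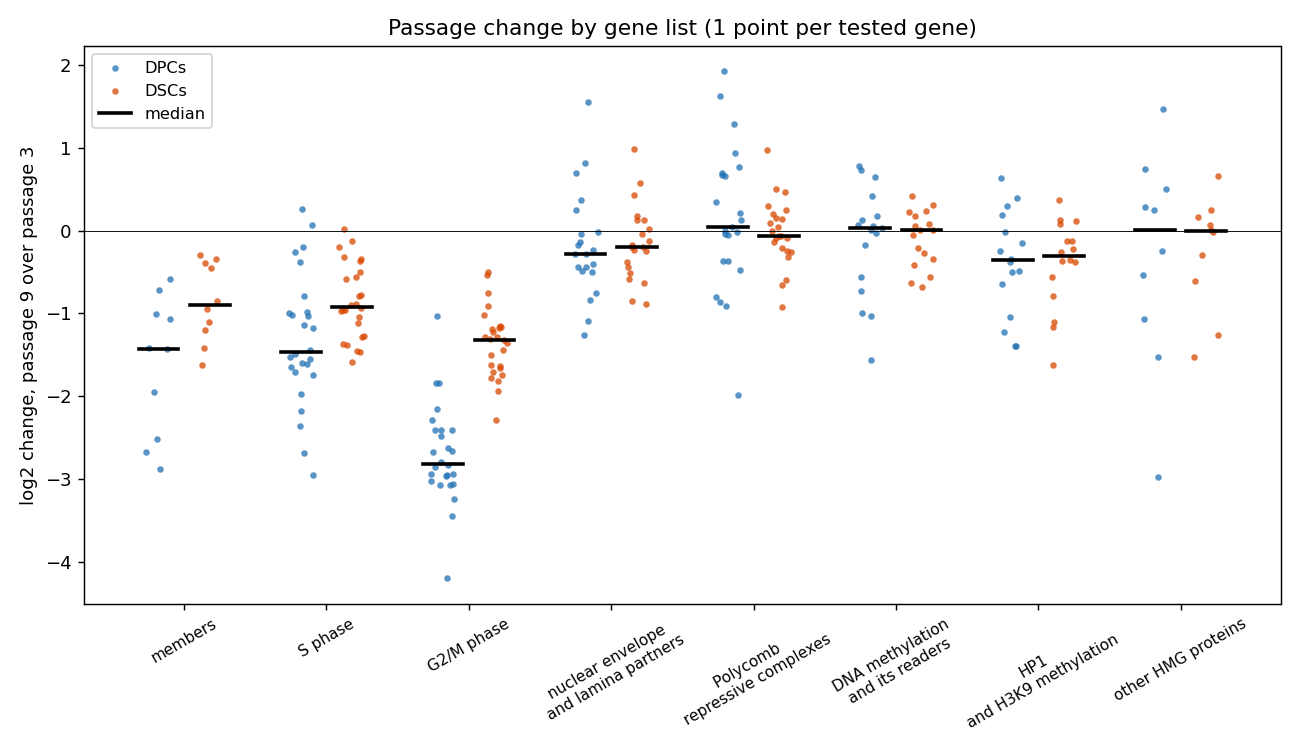
Change with passage (log2) of every tested gene in 8 lists, 1 point per gene, in DPCs (blue) and DSCs (orange), with black bars for medians. The members, S-phase and G2/M genes lie mostly below 0, with G2/M medians of -2.82 and -1.32, while the medians of lamina partners, Polycomb, DNA methylation, HP1 and HMG genes lie between -0.36 and 0.05.

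Of 14 genes used as markers of senescence, 4 were higher in DPCs by at least 2-fold, 3 were lower by as much, and 2 were at least 2-fold higher in both cell types. These were Cdkn2a, which codes for the cell cycle inhibitor p16 and for p19ARF, at 1.13 in DPCs and 1.50 in DSCs, and the protease gene Mmp3 at 5.44 and 4.52. The study had itself picked Mmp3 from these libraries. Cdkn1a, the p21 gene named after its values were seen, changed by -0.32 and 0.09.

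The labelled cell types and the markers of other cells were checked in the same libraries. Of 10 mesenchymal markers, all passed the filter, and Pdgfra, a receptor of fibroblast-like cells, was higher at high passage by 1.42 in DPCs and 1.14 in DSCs. Of these markers, 5 were at least 2-fold lower and 1 higher in DPCs, and 1 lower and 1 higher in DSCs, with median changes of -0.85 and -0.31. Their summed level was 27680 CPM at passage 3 and 11222 at passage 9 in DPCs, and 35190 and 29476 in DSCs. The contractile gene Acta2 had 262118 counts in low-passage and 67135 in high-passage DPCs, and 217199 and 197315 in DSCs. It codes for α-SMA, a protein that the study used as a DSC marker. At passage 3 its level was 7123 CPM in DPCs and 5728 CPM in DSCs, and at passage 9 it was 1870 and 4330 CPM. Of 10 keratinocyte markers 3 were tested, and Krt5, Krt14 and Cdh1 were at 0 in every library. The summed level of the list was 2.34 CPM at passage 3 and 6.44 at passage 9 in DPCs, and 4.11 and 52.7 in DSCs, most of it from Dsp, a gene of cell junctions, save in low-passage DPCs, where Krt10 gave 1.66 CPM and Dsp 0.27. Of 6 melanocyte markers 2 were tested and 4, with Dct and Tyr among them, were at 0, with sums between 11.2 and 28.3 CPM.

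The sums of the mesenchymal, immune and Schwann cell lists were lower at passage 9 in both cell types, as were the members. The summed immune markers (8 genes on 9 rows, 7 rows tested) were 118 CPM in low-passage and 64.7 in high-passage DPCs, and 168 and 94.7 in DSCs. In this list the T-cell gene Cd3e was at 0, Ptprc, the pan-leukocyte gene, had 18 to 116 counts, and Csf1r, a macrophage receptor, had 156 to 570. The Schwann cell markers (6 genes, 5 tested) summed to 12.1 CPM in low-passage and 3.65 in high-passage DPCs, and 30.5 and 5.09 in DSCs. There Ngfr had 144 counts in low-passage DPCs and 544 in low-passage DSCs, Cdh19 had 33 and 95, and both were at 0 in the high-passage libraries. The endothelial markers (5 genes, 4 tested) went from 2.55 to 5.52 CPM in DPCs, where Vwf had 5 and 194 counts, and from 7.89 to 1.21 CPM in DSCs, with Cdh5 at 0 and Pecam1 at 4 to 9 counts at high passage. The part of these lists in the members' change was not tested.

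Passage was tested across all genes with edgeR's quasi-likelihood test, with cell type as a second term of the model. It has 1 residual degree of freedom, which comes from how far the changes in DPCs and DSCs differ. No gene had a Benjamini-Hochberg adjusted p under the threshold (0.00% of tested genes), and adjusted p for the members lay between 0.188 and 0.334. At an unadjusted p under 0.05, 2822 genes passed, and 7 of the 10 members did, while 7.79% of tested genes passed with a lower level. DESeq2's Wald test used the same model with the same 1 residual degree of freedom, and it draws each gene's spread toward a trend over genes. It called 955 genes and 6 members, all 6 of them lower (Lmnb1, Lmna, Hmgb2, Hmga1, Ezh2 and Uhrf1). Of tested genes, 2.71% were called lower.

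The genes whose levels over the 4 libraries were most like those of Lmnb1 were searched among 12191 genes with a mean count of at least 100. Likeness was the root mean square distance between log2 levels centred on their own mean. Nearest were Trip13, Mybl2, Ccnf, Tagln2 and Aurka, at distances between 0.030 and 0.057. For Hmga2 the nearest were the ribosomal protein genes Rpl35a and Rpl11, followed by Galk1, Col5a3 and Acta2, at distances between 0.019 and 0.068. With 4 libraries, many genes share any given pattern, so these names describe likeness alone.

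The members are spread over the genome. In the deposited positions, which follow build GRCm38, Lmna is at chr3:88480147-88509956, Lbr at chr1:181815335-181843046, Hmgb2 at chr8:57511907-57515999 and Ezh2 at chr6:47530139-47595341. Hmga2 is at chr10:120361275-120476469, Dnmt1 at chr9:20907209-20959888 and Cbx5 at chr15:103191544-103239816, while Hmga1 (chr17:27556620-27563674) and Uhrf1 (chr17:56303321-56323486) share a chromosome. Lmnb1 is on chromosome 18. Reads were counted over whole genes, so the values do not separate exons or UTRs.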

How the data were processed

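RNA sequencing data of 4 libraries were analysed. Raw counts of all libraries are in 1 table that the authors deposited. The authors also deposited FPKM, normalized by them for transcript length and depth, in a table for each library. Per the labels' processing notes Bowtie 0.12.2 was used, with older mouse builds named without a role, while the deposited positions match GRCm38. The counting program and the use of strand are not given in the sources used here. Poly-T selection is described in the study's methods, with a kit other than the one the labels name.

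A mean raw count of 10 or more was required of a row (16734 of 51826). Counts were scaled with TMM in edgeR 4.0.16 (R 4.3.3, limma 3.58.1), and log2 CPM used a prior count of 2. The study used a 4-fold threshold, and 2-fold was added. Passage was tested with edgeR's quasi-likelihood test and, as an alternative, with DESeq2 1.42.0, both with cell type as a term. Intervals and floors (3 counts) cover counting error only. FPKM columns were checked against counts over 12191 genes, where Spearman's rho was at least 0.954 with the own library and at most 0.343 with another, on values divided by each gene's mean. The calculation of log2 changes was checked on simulated counts with known changes, equal in both cell types. The intervals, sequence searches and calls of the tests had no such check.

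The members, lists, thresholds and named genes were chosen with earlier results of these data known. Named were the members, their paralogs, up to 3 genes per list that passed 2-fold the same way in both cell types with the largest smaller change, genes with a mean count of at least 100 that passed in opposite directions, and the 5 genes nearest in pattern to Lmnb1 and to Hmga2. Other genes were picked after their values were seen, which is said for most of them. Krt5, Krt14, Krt10, Cdh1, Dct, Tyr, Cd3e, Vwf, Lin28a and Lin28b carry no such remark and also lie outside this rule. Some genes are not reported here. Of 216 list symbols, 215 were found.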

Additional observations from a re-analysis of the deposited data

Results flagged for a closer look

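Igfbp3, a gene of the senescence list that codes for a secreted binding protein of insulin-like growth factors, passed 2-fold in opposite directions in the cell types. It had 842 counts in low-passage and 6947 in high-passage DPCs, and 754 in low-passage and 385 in high-passage DSCs. Its change was 3.08 in DPCs and -1.23 in DSCs, a gap of 4.31 log2 units. With 1 library per group the difference was not tested.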

How the results depend on the processing

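Total-count, DESeq2 and upper-quartile scaling, prior counts of 0.5 and 10 and halved counts (as if both mates of a pair had been counted) left all members lower at passage 9 and left 8 in DPCs and 4 in DSCs at least 2-fold lower. These last are also the counts when the 4-fold threshold is replaced by 2-fold. Deposited FPKM turned the change of Cbx5 in DPCs to 0.25 with a pseudocount of 0.1 and to 0.24 with 1, its difference between cell types at passage 9 to 0.88 and 0.84, that of Dnmt1 to 0.0062 and 0.0058 and that of Hmga1 to 0.072 and 0.071. Total-count scaling turned the difference of Hmga1 from -0.04 to 0.06 and took Hmgb2 and Hmga2 at passage 9 to -0.94 and -0.99, short of 2-fold, as did FPKM, with -0.92 and -0.72 for Hmgb2 and -0.99 and -0.96 for Hmga2. FPKM with a pseudocount of 1 left 7 members in DPCs and 2 in DSCs at least 2-fold lower. DESeq2's Wald test called 6 members where edgeR called 0. With DESeq2 size factors, with no filter, with a mean count of at least 100 or with passage alone, edgeR still called 0 members. All 10 counting intervals of the change excluded 0 in each cell type, also with halved counts, and for 22.2% of tested genes both intervals did so on the lower side. No replicate could be left out. No paired analysis was possible because the groups share only the replicate number 1, which pairs nothing, while cell type as a term already sets passage 9 against passage 3 within each cell type.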

Other observations

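Among 7 genes around Hmga2 and let-7, the RNA-binding protein genes of the Igf2bp family went different ways. Igf2bp2 was the most abundant by FPKM and had 3245 counts at passage 3 and 1410 at passage 9 in DPCs, and 1910 and 1741 in DSCs, a change of -1.17 and -0.40. Igf2bp3 was at 0.80 in DPCs and 0.93 in DSCs, and Igf2bp1 at -0.50 and 1.67. The size of the last change depends on the measure. Igf2bp1 had 116 and 449 counts in DSCs, but FPKM of 0.748 and 1.04. The Igf2bp genes were picked after their values were seen, and no relation to Hmga2 was tested.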
